A study of Homo sapiens with 12 samples.

Results

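The gene set described here holds 49 human genes that code for the digestive enzymes of the lysosome, their activators and the proteins of its membrane. They were taken as a list of gene names, chosen by function with earlier results of these data known. The list was divided into 11 glycosidases, 14 cathepsins and other peptidases, and 8 lipid enzymes, activators and lipid transfer proteins. It also held 5 sulfatases, 2 further hydrolases (a phosphatase and a nuclease) and 9 membrane proteins. Of these 49 genes, 48 had a row among the 25733 genes of the deposited expression table, and the expression of CTSF was not analysed here. A mean of at least 1 FPKM (fragments counted on a gene, divided by its length and by the depth of the library) over the 12 libraries was reached by 43 of the 49 members and by 12341 genes in all, and only these were tested.

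The values are bulk RNA sequencing of HCT116, an established human colorectal carcinoma cell line. The study examined how ammonia bears on TGF-β signalling in colon cancer cells, and its 4 groups had 3 libraries each: no treatment (Control), TGF-β, NH4Cl, and NH4Cl with TGF-β (the combined group). By the study's methods, NH4Cl was given at 10 mM for 24 h, or for 23 h followed by 1 h with TGF-β at 200 pM, while the sample labels give no dose or time. Each library held 14808913 to 18193486 reads on genes, as recovered from the FPKM values and gene lengths. Nothing in the labels says that libraries of 1 group came from separate cultures, so p-values measure only the spread between these samples, which may be technical. HCT116 is commonly described as carrying inactivated TGFBR2, the type II TGF-β receptor, which limits it as a model of the TGF-β response.

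Lysosomes are acidic organelles in which hydrolases break down proteins, glycans, lipids and nucleic acids, and most of these enzymes work best at low pH. NH4Cl is a weak base source: ammonia crosses membranes, is protonated in acidic compartments and raises their pH. Many lysosomal genes carry an E-box element near their start that transcription factors of the TFEB family can bind, and these factors are known to respond to lysosomal stress.

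The libraries differed in a way that the groups do not explain. The replicate 3 library of every group stood apart from replicates 1 and 2: mitochondrial genes took 4.50 to 5.12% of its reads against 2.46 to 3.18%, and the mean chi-square per gene between it and the other libraries of its group was 25.4 to 36.3, against 1.76 to 5.02 between replicates 1 and 2. Libraries with the same replicate number also deviated together from their group means in every pair, with correlations over genes from 0.349 up to 0.431 among replicate 1 libraries. Replicate 2 libraries had 0.446 up to 0.533, and replicate 3 libraries 0.702 up to 0.774. Pairs with different numbers ran from -0.655 to 0.486, so that only replicate 3 lay wholly above them. The number was a block in the limma test, a choice made with earlier results of these data known, and counts are given without the block and without replicate 3 as well. Fold changes are differences in log2(FPKM + 1), which understate changes more the lower the FPKM of a gene, and most near or below 1 FPKM. Their sizes are therefore not on an equal scale between members or classes of low and high level.

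The cells had the epithelial markers their label calls for. KRT18 averaged 876 FPKM over the 12 libraries, KRT8 860, KRT19 556, EPCAM 254, VIL1 90.3, CDH1 17.9 and CDX2 13.6, while KRT20 (0.19 FPKM) and CEACAM5 (0.0956 FPKM) were near 0. Of the 10 macrophage markers, which matter because macrophages are rich in lysosomes, 3 had a row, and LYZ was the most abundant at a mean of 1.12 FPKM. The other 7, PTPRC and CD163 among them, were not analysed here. The summed level of LYZ, CD14 and CSF1R ran from 1.04 to 2.87 FPKM over the libraries. Fibroblast markers summed to 8.03 to 11.2 FPKM, of which LUM held 7.79 FPKM and COL1A1 1.68 FPKM on average. COL1A2, COL3A1 and FAP were all under 0.01 FPKM on average. The 4 endothelial markers summed to 1.58 to 6.84 FPKM, of which VWF held 3.01 FPKM on average and was highest in replicate 3 of each group. VWF also rose with NH4Cl, by 0.46 (limma adjusted p = 0.00423, higher in 3 of 3 pairs), as did VIL1 (0.18, limma adjusted p = 0.0382, 3 of 3 pairs), while KRT19 fell (-0.39, limma adjusted p = 0.000131, higher in 0 of 3 pairs), all named here after their values were seen. None of these 3 passed without the block. In the combined group VWF rose by 0.52 against TGF-β (limma adjusted p = 0.00181) and by 0.47 against Control (limma adjusted p = 0.003). Of 9 epithelial markers tested, 1 rose and 2 fell in each of these comparisons, where 18.8% and 18.4% of all genes passed. Without the block 0 of these markers passed in either comparison. PECAM1 and KDR were under 0.1 FPKM in every library. The part of these markers in the results below was not tested.

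Promoters of the members on which the results turn are shown first, because the E-box differs between them. RefSeq promoters of 300 bases (250 before to 50 after the gene's start, build GRCh38.p14) were matched by symbol for 36 of the 49 members; those without an entry were ARSA, ASAH1, CTSB, CTSK, CTSO, CTSS, HEXA, LAMP2, LGMN, MANBA, NAGLU, PSAP and SGSH. Capitals mark the E-box CACGTG and its longer form TCACGTGA, which contains it; both read the same on either strand. Shown are 4 members with large rises with NH4Cl (GAA at chr17:80101331-80101630 on the + strand, NPC2 at chr14:74493463-74493762 on the - strand, TPP1 at chr11:6619373-6619672 on the - strand and NEU1 at chr6:31862772-31863071 on the - strand), the member with the largest fall (ACP2 at chr11:47248765-47249064 on the - strand), and 2 members that hold the longer form in 2 copies and did not pass the test with NH4Cl against Control (LAMP1 at chr13:113296989-113297288 on the + strand and MCOLN1 at chr19:7522374-7522673 on the + strand).
GAA: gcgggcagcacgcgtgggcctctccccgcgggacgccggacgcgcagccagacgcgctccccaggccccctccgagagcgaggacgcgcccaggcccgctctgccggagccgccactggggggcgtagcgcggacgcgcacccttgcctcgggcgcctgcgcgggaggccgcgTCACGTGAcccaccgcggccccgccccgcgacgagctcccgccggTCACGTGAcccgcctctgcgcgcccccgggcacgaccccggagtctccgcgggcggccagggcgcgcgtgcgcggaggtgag
NPC2: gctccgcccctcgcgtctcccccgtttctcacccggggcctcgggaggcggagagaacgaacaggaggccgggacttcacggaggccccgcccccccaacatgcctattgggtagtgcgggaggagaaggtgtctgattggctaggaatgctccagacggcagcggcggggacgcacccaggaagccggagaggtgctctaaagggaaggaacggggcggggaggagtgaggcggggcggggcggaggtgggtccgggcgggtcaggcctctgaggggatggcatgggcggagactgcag
TPP1: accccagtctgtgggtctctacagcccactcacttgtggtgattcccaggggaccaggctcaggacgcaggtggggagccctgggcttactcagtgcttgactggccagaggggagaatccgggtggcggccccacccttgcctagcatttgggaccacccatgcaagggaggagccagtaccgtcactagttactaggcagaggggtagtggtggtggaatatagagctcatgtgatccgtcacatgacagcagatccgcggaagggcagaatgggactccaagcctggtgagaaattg
NEU1: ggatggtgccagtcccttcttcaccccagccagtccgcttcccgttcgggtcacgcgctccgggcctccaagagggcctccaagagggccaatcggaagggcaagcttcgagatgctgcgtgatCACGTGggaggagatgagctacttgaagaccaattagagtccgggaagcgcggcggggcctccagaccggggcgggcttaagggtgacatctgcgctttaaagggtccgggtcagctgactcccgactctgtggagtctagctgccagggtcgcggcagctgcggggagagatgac
ACP2: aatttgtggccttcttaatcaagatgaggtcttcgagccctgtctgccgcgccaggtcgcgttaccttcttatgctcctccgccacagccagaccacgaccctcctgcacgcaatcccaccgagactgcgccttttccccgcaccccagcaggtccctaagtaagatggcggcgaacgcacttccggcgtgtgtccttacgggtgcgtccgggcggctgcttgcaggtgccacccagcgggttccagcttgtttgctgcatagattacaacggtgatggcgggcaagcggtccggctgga
LAMP1: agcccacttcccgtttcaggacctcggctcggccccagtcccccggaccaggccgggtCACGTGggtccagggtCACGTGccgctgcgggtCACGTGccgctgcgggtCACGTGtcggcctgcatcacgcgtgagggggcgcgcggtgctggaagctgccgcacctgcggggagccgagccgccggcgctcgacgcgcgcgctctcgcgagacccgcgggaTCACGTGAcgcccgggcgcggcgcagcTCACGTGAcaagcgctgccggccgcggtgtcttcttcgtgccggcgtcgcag
MCOLN1: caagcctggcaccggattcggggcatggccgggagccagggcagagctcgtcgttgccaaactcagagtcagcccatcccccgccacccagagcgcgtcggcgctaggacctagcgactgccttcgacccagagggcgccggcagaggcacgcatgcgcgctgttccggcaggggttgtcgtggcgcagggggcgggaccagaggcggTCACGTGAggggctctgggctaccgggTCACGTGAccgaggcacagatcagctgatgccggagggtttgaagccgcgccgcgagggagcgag

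CACGTG was present in 10 of the 36 member promoters (27.8%) and in 2030 of all 27305 promoters of the table (7.43%). TCACGTGA was present in 6 of 36 (16.7%) against 283 of 27305 (1.04%). Over the promoters of the genes tested, the shares were 10.4% for CACGTG and 2.02% for TCACGTGA. Among members that rose with NH4Cl, 4 of 11 promoters held CACGTG, among those that fell 0 of 3, and among those tested that did not pass 4 of 18. For TCACGTGA these were 2 of 11 (18.2%), 0 of 3 and 3 of 18 (16.7%). GAA held its 2 copies at -76 and -31 from the start, NEU1 had 1 copy, and NPC2, TPP1 and ACP2 had none in this window. A match is a description of these letters and shows no binding.

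The members spanned a wide range of levels, as the plot of mean FPKM in the 4 groups shows. PSAP, the precursor of the saposins that present lipids to their enzymes, averaged 110.6 FPKM over the 12 libraries. CTSZ, a cysteine carboxypeptidase, averaged 110.1, CD63, a tetraspanin of late endosomes and lysosomes, 96.6, and CTSB, a cysteine protease, 70.3. These 4 genes carried 47.2% of the summed FPKM of the 48 members. A further 20 members lay between 10 and 50 FPKM, 19 between 1 and 10, and 5 under 1: CTSK, ARSB, GALC, SGSH and CLN3.

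**Figure D1:**
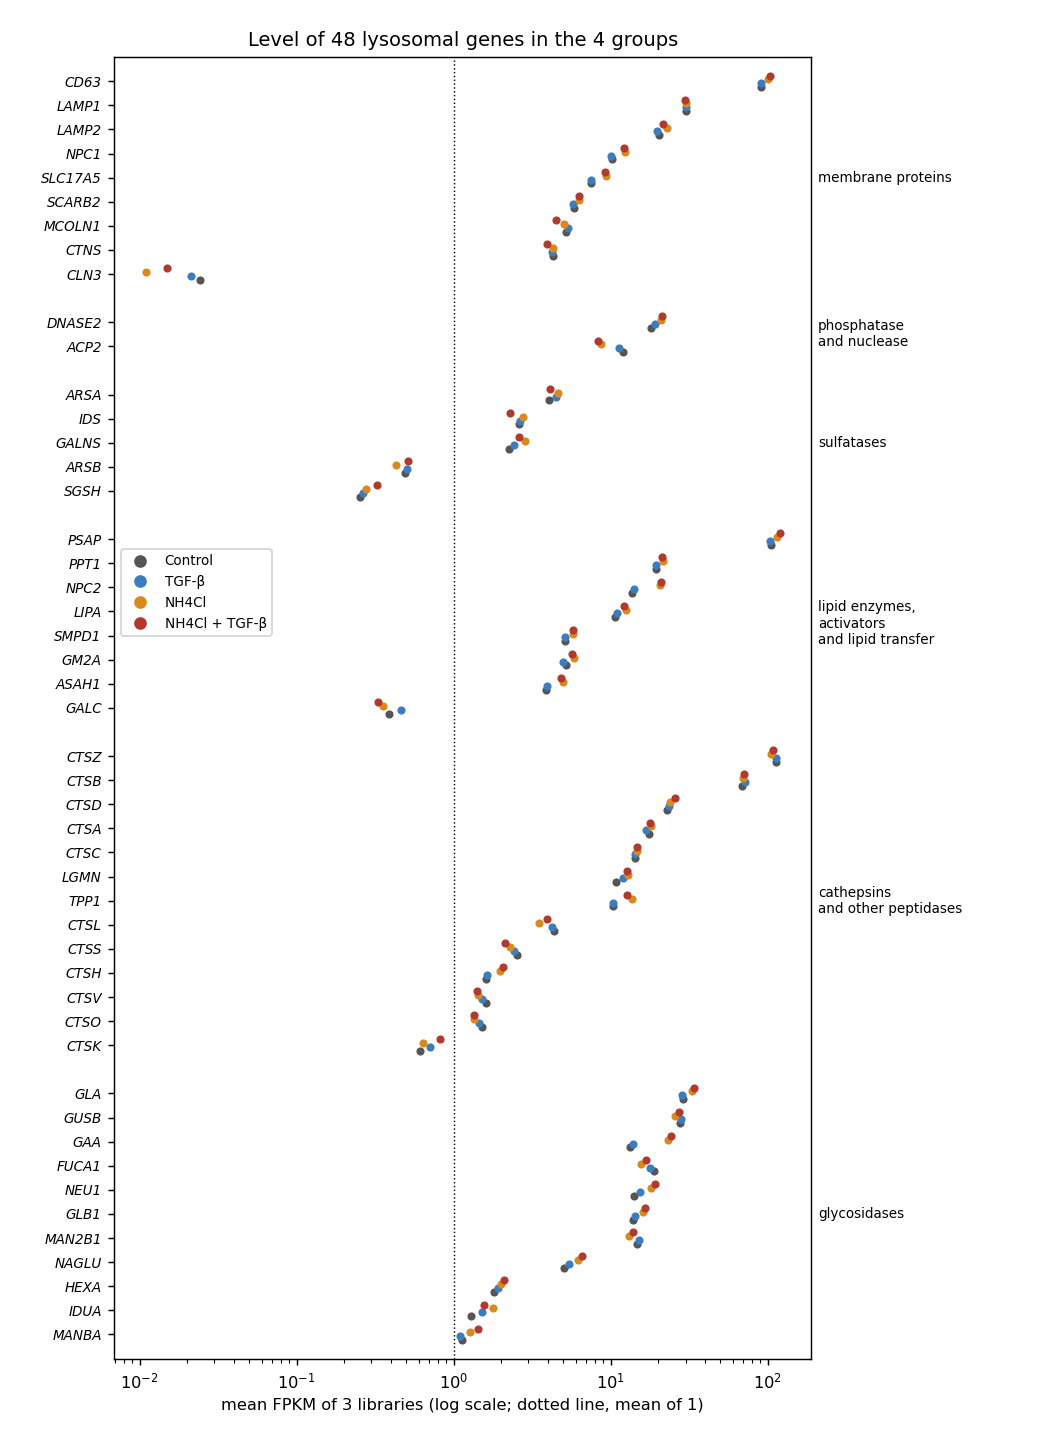
Mean FPKM of 3 libraries in each of the 4 groups for the 48 members with a row, on a log axis, grouped by class; points of 1 gene are set slightly apart vertically, and the dotted line marks 1 FPKM. PSAP, CTSZ, CD63 and CTSB stand highest, and the 5 members left of the line were not tested.

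Gene positions are those of GENCODE release 29 on GRCh38, and some members share exon positions with a neighbour. Whether the reads were counted by strand is not given in the sources used here, and reads where genes overlap may be lost or misplaced. Other annotated genes covered 52.7% of the exon bases of CTSD, the aspartic protease, and 30.9% of those of CLN3, a membrane protein mutated in Batten disease that was listed at 0.00591 to 0.0548 FPKM. They covered 28.5% for CTSA (mainly NEURL2, antisense), 23.4% for PPT1 (mainly CAP1, antisense, itself at 27.8 FPKM), 21.2% for MAN2B1, 17.4% for IDS, 16.3% for HEXA and 14.4% for TPP1. The levels of these genes are uncertain to that extent.

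With NH4Cl against Control, 14 of the 43 members tested rose and 3 fell, at a limma adjusted p under 0.05 with the replicate block. Over all genes tested, 13.6% passed in either direction, 7.42% upward and 6.14% downward, against 32.6% upward and 6.98% downward among the members. Because the members were chosen with earlier results of these data known, these shares are a description only. The median log2 fold change was 0.14 over the members and 8.4e-05 over all genes. Of the 43 members, 23 were higher in 3 of 3 same-number pairs, which held for 26.4% of all genes. Of the 17, the 14 that rose were higher in 3 of 3 such pairs and the 3 that fell in 0 of 3. A change in the share of cells that express a gene and a change in its RNA per cell cannot be told apart in bulk samples.

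These counts depended on the block and on single libraries. Without the block, 2 of 43 members passed (GAA and NPC2), where 0.381% of all genes did. With replicate 3 left out of every group, 12 passed, 11 of them among the 17, beside 9.29% of all genes. With replicate 1 left out of every group 3 passed (GAA, NPC2 and TPP1), beside 2.21%, and with replicate 2 left out 2 passed (GAA and NPC2), beside 1.77%. Leaving out 1 library gave 10 members without control replicate 1 (6.29% of all genes), 8 without control replicate 2 (6.05%), 11 without control replicate 3 (8.04%), 11 without NH4Cl replicate 1 (7.16%), 8 without NH4Cl replicate 2 (5.71%) and 10 without NH4Cl replicate 3 (11.3%). In each of these settings the share of all genes was below the 13.6% found with all libraries. It was higher with a filter at a mean of 5 FPKM (18 of 30 members, 19.7% of all genes). Without TGF-β replicate 3 it was 14.5% (16 members), and without combined replicate 3 it was 13.8% (18 members). Median centring of each library gave 10 members up and 4 down, where 777 genes rose and 892 fell over all (13.5%), against 916 and 758 without centring. Dropping the FPKM filter gave 9 up and 2 down of 48 members, beside 4.36% of all 25733 genes. The members that passed whichever single library was left out were GAA, NPC2, TPP1, NEU1, NPC1 and ACP2. Of these 6, NEU1, NPC1 and ACP2 did not pass with replicate 1 left out of every group (limma adjusted p = 0.0744, 0.089 and 0.0525), nor with replicate 2 left out (limma adjusted p = 0.0997, 0.151 and 0.0614), and TPP1 did not pass with replicate 2 left out (limma adjusted p = 0.0574).

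**Figure D2:**
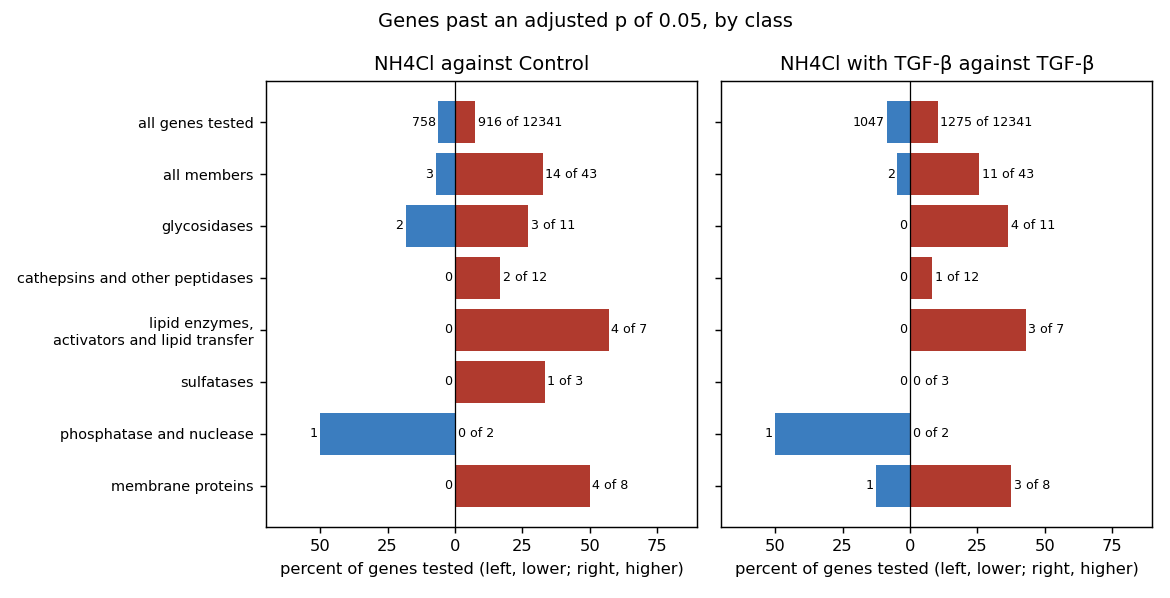
Percent of genes tested that passed a limma adjusted p of 0.05 with the replicate block, higher to the right and lower to the left of 0, by class, for NH4Cl against Control (left panel) and for NH4Cl with TGF-β against TGF-β (right panel); numbers are gene counts. The bars of all members reach 32.6% and 25.6% upward, against 7.42% and 10.3% for all genes.

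Among the glycosidases, which remove sugars from glycans and glycolipids, 3 of 11 rose (GAA, NEU1 and GLB1) and 2 fell (FUCA1 and MAN2B1), 27.3% and 18.2% beside 7.42% and 6.14% of all genes, with a class median of 0.19. GAA (ENSG00000171298, chr17:80101556-80119879), the acid alpha-glucosidase that breaks down glycogen in the lysosome, measured 13.3, 13.6 and 13.3 FPKM in the control libraries, 12.9, 13.5 and 15.1 after TGF-β, 24.1, 25.5 and 20.4 after NH4Cl and 25.02, 26.0 and 21.8 in the combined group. All 6 libraries with NH4Cl lay above all 6 without it. The log2 fold change with NH4Cl was 0.75 (SE 0.082, limma adjusted p = 0.000648), and the call stood without the block (limma adjusted p = 0.0131).

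NEU1 (ENSG00000204386, chr6:31857659-31862906), the lysosomal sialidase, measured 13.5, 11.8 and 17.2 FPKM in the control libraries, 13.6, 12.5 and 19.8 after TGF-β, 17.5, 16.6 and 20.5 after NH4Cl and 17.6, 17.2 and 22.9 in the combined group. The control and NH4Cl libraries overlapped, since control replicate 3 lay above NH4Cl replicate 2, yet each NH4Cl library was above the control of its number. With NH4Cl the log2 fold change was 0.35 (SE 0.060, limma adjusted p = 0.00517), and it did not pass without the block (limma adjusted p = 0.541). GLB1, the beta-galactosidase that trims gangliosides and keratan sulfate, rose by 0.19 (SE 0.037, limma adjusted p = 0.00901), a call lost without NH4Cl replicate 2 (limma adjusted p = 0.0533).

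The 2 glycosidases that fell were of middling abundance. FUCA1 (ENSG00000179163, chr1:23845077-23868294), the tissue alpha-fucosidase, measured 19.7, 19.7 and 17.8 FPKM in the control libraries, 19.1, 18.2 and 16.0 after TGF-β, 15.2, 15.8 and 16.0 after NH4Cl and 16.9, 17.0 and 16.5 in the combined group. The 3 NH4Cl libraries lay below the 3 control libraries, while the combined group lay between them and the TGF-β replicate 3 library was as low as NH4Cl. NH4Cl against Control gave -0.26 (SE 0.053, limma adjusted p = 0.0118), and the call was lost without control replicate 1 or 2 or NH4Cl replicate 1 or 2 (limma adjusted p 0.0541 to 0.0564) and without the block (limma adjusted p = 0.142).

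MAN2B1 (ENSG00000104774, chr19:12646511-12666742), the lysosomal alpha-mannosidase, measured 14.5, 14.7 and 15.3 FPKM in the control libraries, 14.8, 14.7 and 15.8 after TGF-β, 13.1, 13.5 and 12.8 after NH4Cl and 13.2, 13.6 and 14.8 in the combined group. Its NH4Cl libraries were all below its control libraries, by a small margin. The difference from Control with NH4Cl was -0.17 (SE 0.043, limma adjusted p = 0.0295), which did not pass without the block (limma adjusted p = 0.264), with no FPKM filter, TPM in place of FPKM or a model of the compared groups alone (limma adjusted p 0.0509 to 0.0615), without control replicate 1, 2 or 3 or NH4Cl replicate 1 or 3 (limma adjusted p 0.0635 to 0.0993), or with replicate 3 left out of every group, at -0.13 (limma adjusted p = 0.0895).

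GLA (ENSG00000102393, chrX:101397803-101408012), the alpha-galactosidase A that acts on globotriaosylceramide, was the most abundant glycosidase, at 29.4, 29.9 and 27.0 FPKM in the control libraries, 31.5, 29.1 and 25.2 after TGF-β, 32.8, 33.6 and 32.7 after NH4Cl and 37.5, 35.1 and 29.5 in the combined group. Every NH4Cl library exceeded every control library, but the log2 fold change of 0.19 (95% interval 0.065 to 0.32, limma adjusted p = 0.0532) missed the threshold. It passed with a filter at a mean of 5 FPKM, TPM in place of FPKM or a model of the compared groups alone (limma adjusted p 0.0326 to 0.0399), and without NH4Cl replicate 1 or combined replicate 1 or 3 (limma adjusted p 0.0386 to 0.0489). The other 5 glycosidases did not pass. IDUA, which acts on heparan and dermatan sulfate, had a log2 fold change of 0.28 (95% interval 0.092 to 0.46), and passed with no intensity trend (limma adjusted p = 0.037) and without combined replicate 1 or 2 (limma adjusted p 0.035 to 0.0395). NAGLU had 0.24 (0.027 to 0.46), and passed without control replicate 1 (limma adjusted p = 0.0362). The rest were HEXA 0.086 (-0.068 to 0.24), MANBA 0.084 (-0.10 to 0.27) and GUSB -0.10 (-0.19 to 0.0010). Summed over the class, FPKM averaged 141 ± 4.22 in Control and 156 ± 5.15 with NH4Cl (SD, n = 3).

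Among the cathepsins and other peptidases, 2 of 12 tested rose and 0 fell, 16.7% and 0% beside 7.42% and 6.14% of all genes, with a class median of 0.037. TPP1 (ENSG00000166340, chr11:6612763-6619485), a tripeptidyl peptidase, measured 10.46, 10.7 and 9.93 FPKM in the control libraries, 9.97, 10.9 and 10.4 after TGF-β, 14.1, 14.3 and 12.5 after NH4Cl and 12.9, 14.0 and 11.4 in the combined group. All 6 libraries with NH4Cl stood above all 6 without it, though the exons of TPP1 overlap other genes as given above. Its log2 fold change was 0.36 (SE 0.049, limma adjusted p = 0.00184), and it did not pass without the block (limma adjusted p = 0.0839).

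LGMN (ENSG00000100600, chr14:92703807-92748702), legumain, which cleaves after asparagine and processes other cathepsins, measured 10.54, 10.48 and 11.6 FPKM in the control libraries, 12.3, 11.7 and 12.1 after TGF-β, 12.9, 12.04 and 14.0 after NH4Cl and 13.0, 12.7 and 12.2 in the combined group. The NH4Cl libraries exceeded the controls, and so did the TGF-β and combined libraries. The log2 fold change with NH4Cl was 0.23 (SE 0.051, limma adjusted p = 0.0159). That call was lost without the block (limma adjusted p = 0.164) and without control replicate 1 or 2 or NH4Cl replicate 1 or 3 (limma adjusted p 0.0502 to 0.0792).

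CTSZ (ENSG00000101160, chr20:58995185-59007247), the most abundant of the class, measured 117, 118 and 104 FPKM in the control libraries, 116, 118 and 107 after TGF-β, 107, 108 and 101 after NH4Cl and 107, 114 and 104 in the combined group. Replicate 3 was the lowest library in each group, and the groups overlapped. Its log2 fold change was -0.10 (95% interval -0.17 to -0.024, limma adjusted p = 0.0782), which missed the threshold, though it passed with median centring (limma adjusted p = 0.0457). CTSB was at 0.035 (-0.036 to 0.11), CTSD at 0.051 (-0.071 to 0.17), CTSA at 0.040 (-0.035 to 0.11) and CTSC, which activates granule serine proteases, at 0.045 (-0.059 to 0.15). The less abundant CTSL, CTSS, CTSV, CTSO and CTSH had log2 fold changes of -0.26, -0.11, -0.10, -0.088 and 0.18, and none passed. The summed FPKM of the class was 270 ± 5.90 in Control and 270.1 ± 2.38 with NH4Cl (SD, n = 3).

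Of the lipid enzymes, activators and lipid transfer proteins, 4 of 7 tested rose (NPC2, ASAH1, LIPA and PPT1) and 0 fell, beside 7.42% and 6.14% of all genes, and all 7 had a positive log2 fold change, with a median of 0.15. NPC2 (ENSG00000119655, chr14:74476192-74494177), which carries cholesterol within the lysosome to the membrane protein NPC1, measured 12.7, 12.6 and 15.7 FPKM in the control libraries, 12.7, 14.1 and 15.2 after TGF-β, 20.1, 20.6 and 21.4 after NH4Cl and 20.2, 18.9 and 23.4 in the combined group. Every library with NH4Cl was above every library without it. With NH4Cl the log2 fold change was 0.57 (SE 0.056, limma adjusted p = 0.000387), and it passed without the block as well (limma adjusted p = 0.0432).

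ASAH1 (ENSG00000104763, chr8:18055992-18084998), acid ceramidase, measured 4.04, 3.96 and 3.58 FPKM in the control libraries, 4.35, 3.83 and 3.64 after TGF-β, 4.83, 5.11 and 4.92 after NH4Cl and 5.07, 5.15 and 4.30 in the combined group. The NH4Cl libraries were all above the controls. NH4Cl against Control gave 0.29 (SE 0.058, limma adjusted p = 0.0107), a call lost without NH4Cl replicate 2 (limma adjusted p = 0.0504) and without the block (limma adjusted p = 0.154), and with replicate 3 left out of every group the value was 0.26 (limma adjusted p = 0.0659).

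PSAP (ENSG00000197746, chr10:71816298-71851375) measured 104, 99.6 and 110.0 FPKM in the control libraries, 103, 101 and 107 after TGF-β, 114, 116 and 117 after NH4Cl and 117, 125 and 115 in the combined group. The NH4Cl and combined libraries all exceeded the control and TGF-β libraries. With NH4Cl its log2 fold change was 0.14 (95% interval 0.046 to 0.24, limma adjusted p = 0.0572), just short of the threshold, and it passed with a filter at a mean of 5 FPKM (limma adjusted p = 0.0392) and without combined replicate 2 or 3 (limma adjusted p 0.0322 to 0.033). LIPA, the acid lipase for cholesteryl esters, rose by 0.20 (SE 0.057, limma adjusted p = 0.043), a call lost without control replicate 1, 2 or 3, TGF-β replicate 1, 2 or 3 or NH4Cl replicate 1, 2 or 3 (limma adjusted p 0.0521 to 0.178) and with no FPKM filter, median centring or no intensity trend (limma adjusted p 0.0586 to 0.092). PPT1, which removes fatty acids from proteins, rose by 0.15 (SE 0.041, limma adjusted p = 0.0355), lost without control replicate 1, 2 or 3, TGF-β replicate 1 or NH4Cl replicate 1, 2 or 3 (limma adjusted p 0.0525 to 0.131) and with no FPKM filter or no intensity trend (limma adjusted p 0.0575 to 0.0591). SMPD1, the acid sphingomyelinase, had 0.15 (95% interval -0.0012 to 0.31) and GM2A, the GM2 ganglioside activator, 0.14 (-0.015 to 0.30). GALC was below the filter. The class summed to 163 ± 3.15 FPKM in Control and 187 ± 4.83 with NH4Cl (SD, n = 3).

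Sulfatases, which take sulfate groups off glycans and lipids, were the least abundant class. Of 3 tested, 1 rose (GALNS) and 0 fell, beside 7.42% and 6.14% of all genes. GALNS (ENSG00000141012, chr16:88813734-88856970), which acts on keratan sulfate, measured 2.54, 2.17 and 2.07 FPKM in the control libraries, 2.48, 2.31 and 2.497 after TGF-β, 2.71, 3.06 and 2.76 after NH4Cl and 2.69, 2.76 and 2.38 in the combined group, so that all 3 NH4Cl libraries exceeded the controls. The difference from Control with NH4Cl was 0.24 (SE 0.070, limma adjusted p = 0.0493), a call lost without control replicate 1, 2 or 3, TGF-β replicate 1 or 2, NH4Cl replicate 1, 2 or 3 or combined replicate 1, 2 or 3 (limma adjusted p 0.0539 to 0.192), without the block (limma adjusted p = 0.235) and with no FPKM filter, TPM in place of FPKM, median centring or a model of the compared groups alone (limma adjusted p 0.0562 to 0.115).

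ARSA (ENSG00000100299, chr22:50622754-50628173), arylsulfatase A, the most abundant of the class, measured 4.19, 3.65 and 4.26 FPKM in the control libraries, 3.38, 4.16 and 5.94 after TGF-β, 4.64, 4.51 and 4.65 after NH4Cl and 4.11, 3.86 and 4.34 in the combined group. The NH4Cl libraries exceeded the controls, while the TGF-β group held both the highest library (replicate 3) and the lowest (replicate 1). Its log2 fold change with NH4Cl was 0.16 (95% interval -0.093 to 0.40, limma adjusted p = 0.398). IDS, which removes sulfate from heparan and dermatan sulfate, had 0.056 (-0.12 to 0.24).

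Of the phosphatase and the nuclease, the phosphatase fell. ACP2 (ENSG00000134575, chr11:47239302-47248906), the lysosomal acid phosphatase, measured 12.2, 12.6 and 11.1 FPKM in the control libraries, 13.1, 11.7 and 9.02 after TGF-β, 9.39, 9.12 and 7.61 after NH4Cl and 8.39, 10.01 and 6.56 in the combined group. The NH4Cl libraries were all below the controls, replicate 3 was lowest in every group, and TGF-β replicate 3 was below NH4Cl replicates 1 and 2. Its log2 fold change was -0.42 (SE 0.078, limma adjusted p = 0.00758), the largest fall among the members tested, without passing when the block was left out (limma adjusted p = 0.304). NR1H3 lies antisense across 5.42% of its exon bases.

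DNASE2 (ENSG00000105612, chr19:12875211-12881468), which degrades DNA taken up by lysosomes, measured 18.2, 16.7 and 19.7 FPKM in the control libraries, 19.6, 17.2 and 20.8 after TGF-β, 20.6, 21.3 and 21.0 after NH4Cl and 22.3, 20.7 and 20.5 in the combined group. The NH4Cl libraries exceeded the controls and overlapped the TGF-β libraries. Its log2 fold change of 0.20 (95% interval 0.062 to 0.33, limma adjusted p = 0.0581) missed the threshold, and with replicate 3 left out of every group it was 0.25 (limma adjusted p = 0.0468). It also passed with a filter at a mean of 5 FPKM (limma adjusted p = 0.0369) and without combined replicate 3 (limma adjusted p = 0.041).

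**Figure D3:**
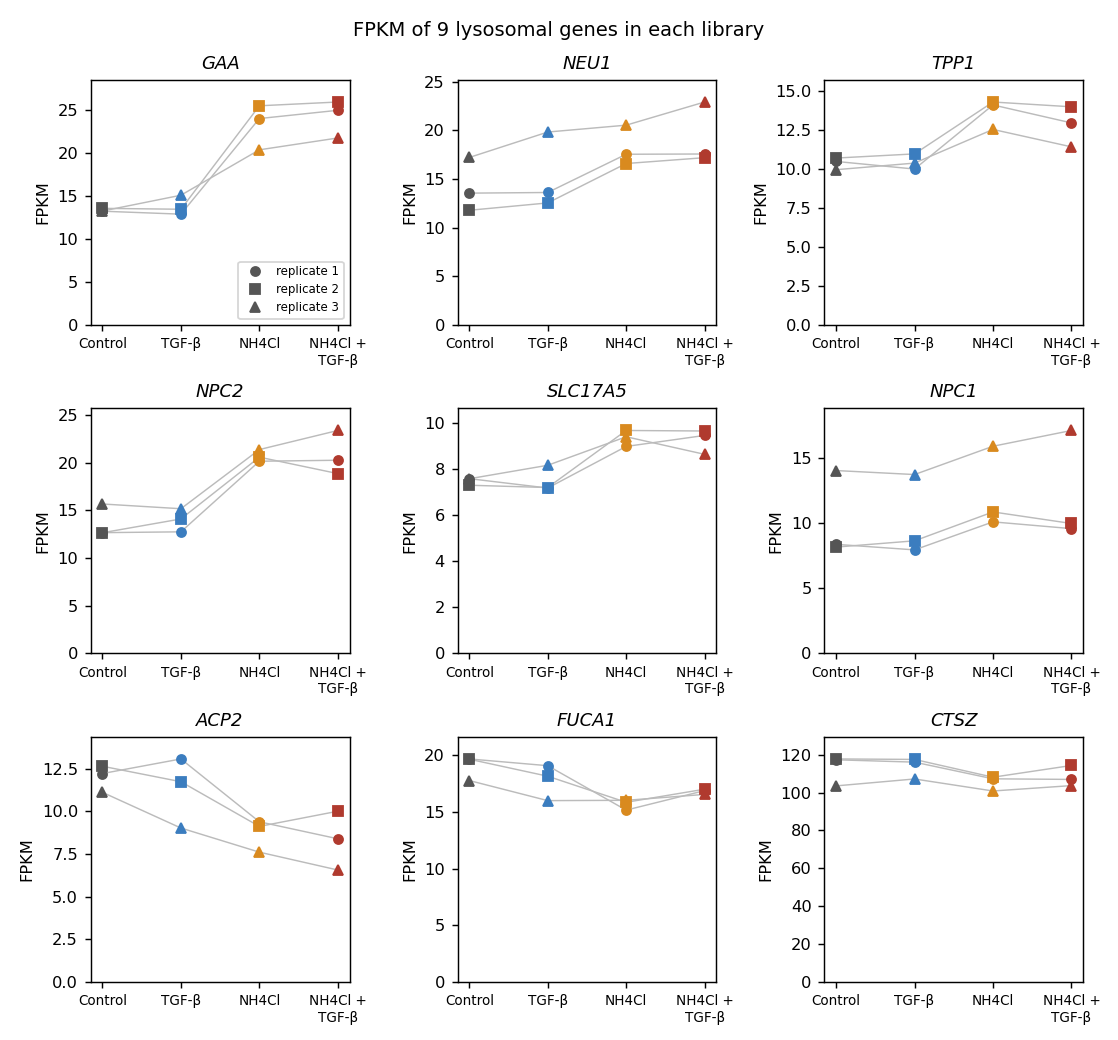
FPKM of 9 members in each library, by group, with libraries of the same replicate number joined by lines; axes start at 0. GAA, TPP1, NPC2 and SLC17A5 separate the 6 libraries with NH4Cl from the 6 without, while NEU1 and NPC1 carry a shift of replicate 3 that is larger than the change with NH4Cl.

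Among the membrane proteins, 4 of 8 tested rose (SLC17A5, NPC1, LAMP2 and CD63) and 0 fell, where 7.42% of all genes rose and 6.14% fell, with a class median of 0.13. Without the block 0 of the 8 passed. SLC17A5 (ENSG00000119899, chr6:73593379-73654155), the sialic acid exporter, measured 7.59, 7.30 and 7.58 FPKM in the control libraries, 7.18, 7.20 and 8.17 after TGF-β, 8.99, 9.68 and 9.41 after NH4Cl and 9.47, 9.66 and 8.64 in the combined group. Every library with NH4Cl exceeded every library without it. The log2 fold change with NH4Cl was 0.29 (SE 0.059, limma adjusted p = 0.0126), a call lost without control replicate 2 or NH4Cl replicate 2 (limma adjusted p 0.0631 to 0.0649) and without the block (limma adjusted p = 0.0971).

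NPC1 (ENSG00000141458, chr18:23506184-23586898), the partner of NPC2 in cholesterol export, measured 8.38, 8.17 and 14.1 FPKM in the control libraries, 7.96, 8.65 and 13.8 after TGF-β, 10.1, 10.9 and 15.9 after NH4Cl and 9.59, 9.99 and 17.1 in the combined group. Replicate 3 of each group was far above replicates 1 and 2, and within each number NH4Cl was above the control. With NH4Cl the log2 fold change was 0.26 (SE 0.048, limma adjusted p = 0.00768), and without the block, which leaves the replicate 3 shift in the error, the limma adjusted p was 0.844. With replicate 3 left out of every group the log2 fold change was 0.31 (limma adjusted p = 0.0196).

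CD63 (ENSG00000135404, chr12:55725323-55729707) measured 93.6, 90.7 and 88.3 FPKM in the control libraries, 90.2, 91.7 and 91.5 after TGF-β, 98.6, 105 and 99.6 after NH4Cl and 108, 106 and 96.4 in the combined group. The NH4Cl libraries lay above the controls by a narrow margin. NH4Cl against Control gave 0.15 (SE 0.040, limma adjusted p = 0.0342), lost without control replicate 1, 2 or 3 or NH4Cl replicate 2 or 3 (limma adjusted p 0.0733 to 0.144), with no FPKM filter, median centring, no intensity trend or a model of the compared groups alone (limma adjusted p 0.0513 to 0.0721) and without the block (limma adjusted p = 0.321). LAMP2, a heavily glycosylated membrane protein of the lysosome, rose by 0.17 (SE 0.048, limma adjusted p = 0.0477), a call lost without control replicate 1, 2 or 3, TGF-β replicate 1, NH4Cl replicate 1, 2 or 3 or combined replicate 1, 2 or 3 (limma adjusted p 0.0557 to 0.187) and with a pseudocount of 0.1, no FPKM filter, TPM in place of FPKM, median centring or no intensity trend (limma adjusted p 0.0501 to 0.0923). LAMP1, the other abundant protein of this kind, had -0.0083 (95% interval -0.083 to 0.066), CTNS, the cystine exporter, -0.0043 (-0.10 to 0.10), SCARB2, which brings glucocerebrosidase to the lysosome, 0.10 (0.0036 to 0.20) and MCOLN1, a cation channel of the membrane, -0.037 (-0.17 to 0.10). LAMP1 and MCOLN1, whose promoters were shown for their copies of the longer E-box, did not pass here. Of the other members tested whose promoters held the longer form, GAA and GALNS rose and CTSA did not pass.

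**Figure D4:**
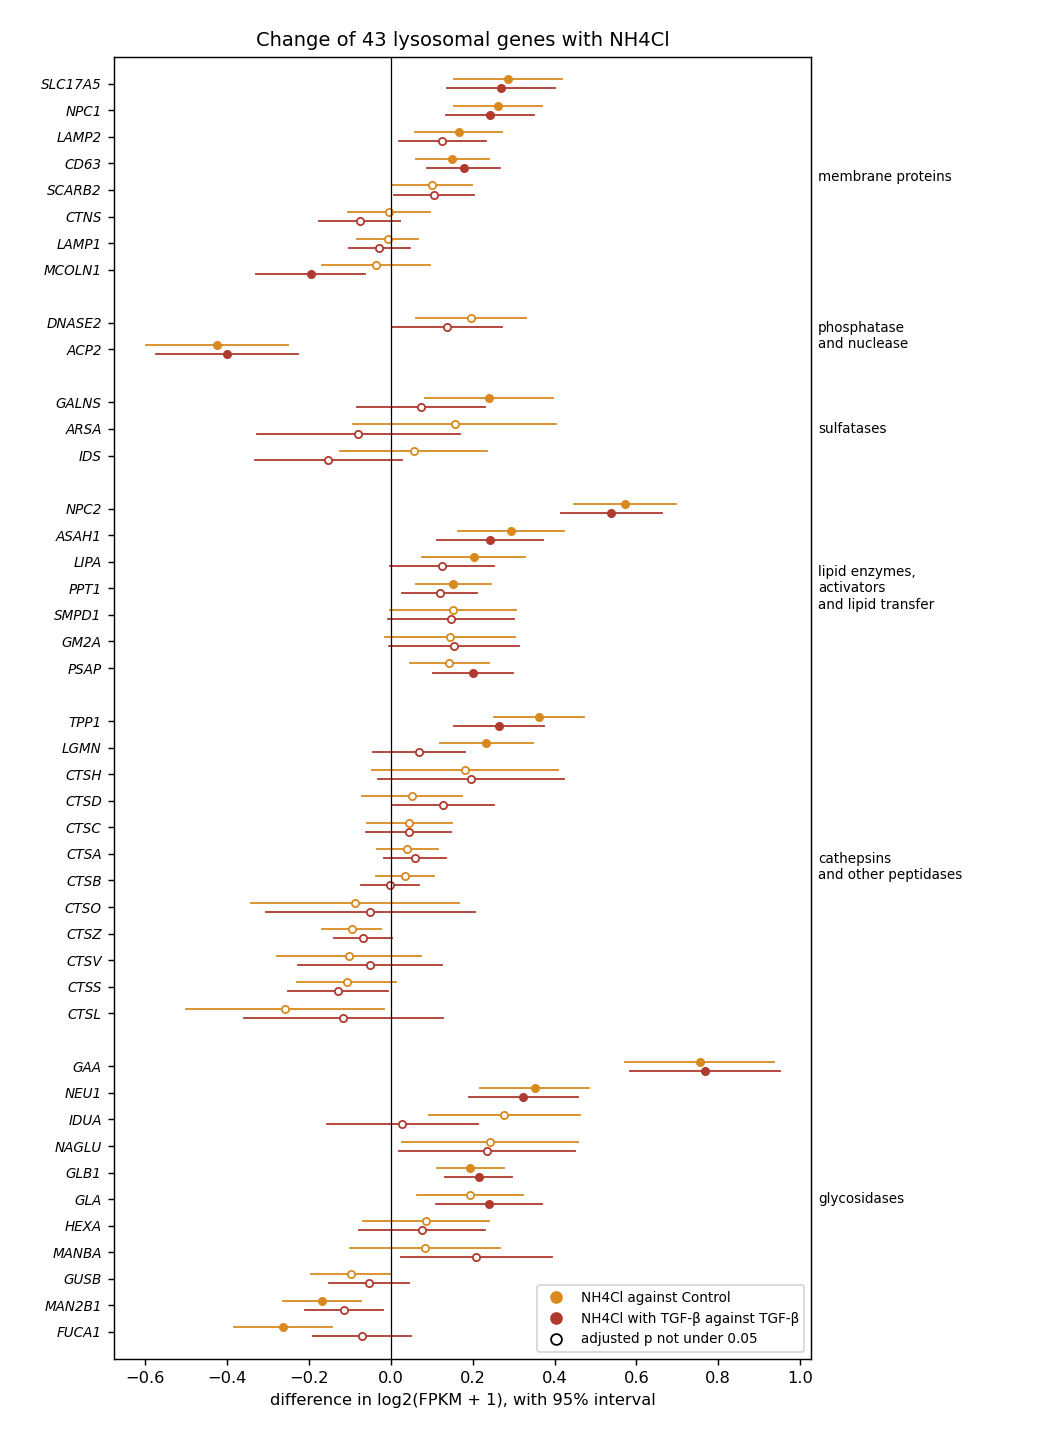
Difference in log2(FPKM + 1) with its 95% interval for the 43 members tested, by class, with NH4Cl against Control (orange) and with NH4Cl and TGF-β against TGF-β (red); filled points passed a limma adjusted p of 0.05 with the replicate block. GAA is furthest right (0.75 and 0.77), and ACP2 furthest left (-0.42 and -0.40).

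The same treatment was measured a second time, between the combined group and TGF-β alone, whose libraries are not those of the groups compared above. The 2 comparisons are not separate tests, because the same model of all 12 libraries gave both their estimate of the spread and their replicate block. Here 11 of 43 members rose and 2 fell, 25.6% and 4.65% against 10.3% and 8.48% of all genes, with 18.8% of all genes passing in either direction. Without the block 2 passed (GAA and NPC2), beside 1.03% of all genes. With only the compared groups in the model 8 passed, beside 9.12% of all genes. All 17 members that passed with NH4Cl against Control had the same sign here, as did 98.6% of the 1674 genes that passed there, and 10 of the 17 also passed here. Those 10 made up 58.8% of the 17 and 76.9% of the 13, while over all genes 1223 shared calls made up 73.1% and 52.7% of the calls in each. GAA had 0.77 (SE 0.082, limma adjusted p = 0.000494), NPC2 0.54 (SE 0.056, limma adjusted p = 0.000438), NEU1 0.32 (SE 0.060, limma adjusted p = 0.00577), TPP1 0.27 (SE 0.049, limma adjusted p = 0.00602), GLB1 0.21 (SE 0.037, limma adjusted p = 0.0043) and ACP2 -0.40 (SE 0.078, limma adjusted p = 0.00746). GLA, PSAP and MCOLN1 passed here and not with NH4Cl alone, at 0.24, 0.20 and -0.20.

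Calls of the combined group against TGF-β were lost for several of these members when 1 library was left out. GLA was lost without TGF-β replicate 2 or 3 or combined replicate 1 or 2 (limma adjusted p 0.064 to 0.0806), PSAP without TGF-β replicate 2 (limma adjusted p = 0.0575) and MCOLN1 without control replicate 1 or 2, TGF-β replicate 1, 2 or 3, NH4Cl replicate 1, 2 or 3 or combined replicate 1 or 2 (limma adjusted p 0.0563 to 0.173). ASAH1 was lost without TGF-β replicate 2 or 3 or combined replicate 1 or 2 (limma adjusted p 0.0537 to 0.0857), CD63 without TGF-β replicate 1 or 2 or combined replicate 1 or 2 (limma adjusted p 0.0533 to 0.0647) and SLC17A5 without TGF-β replicate 1 or 2 or combined replicate 1 or 2 (limma adjusted p 0.0568 to 0.0622), and MAN2B1 was gained without NH4Cl replicate 3 (limma adjusted p = 0.0437) and PPT1 without combined replicate 3 (limma adjusted p = 0.0174). GAA, NPC2, NEU1, TPP1, NPC1, GLB1 and ACP2 passed whichever library was left out. Other settings ended calls too: MCOLN1 with no FPKM filter, TPM in place of FPKM or a model of the compared groups alone (limma adjusted p 0.0541 to 0.117), and GLA with no FPKM filter (limma adjusted p = 0.0513). A model of the compared groups alone ended those of ASAH1, CD63, PSAP and SLC17A5 (limma adjusted p 0.0591 to 0.073). FUCA1, MAN2B1, LGMN, GALNS, LIPA, PPT1 and LAMP2 passed with NH4Cl alone and not here, at -0.070, -0.12, 0.068, 0.073, 0.13, 0.12 and 0.13. With 1 library left out, FUCA1 ran from -0.125 to -0.02, LGMN from 0.0353 to 0.1244 and GALNS from 0.0307 to 0.123. Of the 43 members, 23 were higher in 3 of 3 pairs with the same number, beside 25.2% of all genes. The number of members passing in either direction, 13 with all libraries, was 7 without TGF-β replicate 2 (10.1% of all genes). It was 8 without combined replicate 1 (11.4%) and 8 without combined replicate 2 (11.6%). With a replicate number left out of every group it was 2 for replicate 1 (GAA and NPC2), 3 for replicate 2 (GAA, NPC2 and ACP2) and 14 for replicate 3. Over all genes these 3 settings gave 4.42%, 4.7% and 13.4%.

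Against Control, the combined group had 14 members higher and 1 lower of 43, where 18.4% of all genes passed, 10.7% upward and 7.77% downward. It shares the control libraries with the comparison of NH4Cl alone. Glycosidases had 5 of 11 up (GAA 0.81, NEU1 0.42, NAGLU 0.33, GLB1 0.25 and GLA 0.23), peptidases 2 of 12, lipid enzymes and transfer proteins 3 of 7, membrane proteins 3 of 8 and sulfatases 0 of 3, with DNASE2 up (0.21) and ACP2 down (-0.49). Without the block 2 passed, beside 0.948% of all genes. GLA was lost without control replicate 1, 2 or 3 or combined replicate 1 or 2 (limma adjusted p 0.051 to 0.101), NAGLU without control replicate 2 or 3, TGF-β replicate 2, NH4Cl replicate 1 or 2 or combined replicate 1, 2 or 3 (limma adjusted p 0.05 to 0.179) and DNASE2 without control replicate 1 or 2, TGF-β replicate 1 or combined replicate 1 or 2 (limma adjusted p 0.0547 to 0.151). DNASE2 was also lost with no FPKM filter, no intensity trend or a model of the compared groups alone (limma adjusted p 0.0561 to 0.0866), NAGLU with no FPKM filter, median centring or no intensity trend (limma adjusted p 0.0516 to 0.107) and GLA with no FPKM filter (limma adjusted p = 0.0593). The other calls that ended with 1 library left out were those of LGMN without control replicate 1 or 2 or combined replicate 1 or 2 (limma adjusted p 0.0766 to 0.0973), PSAP without control replicate 1 or 2 or combined replicate 2 (limma adjusted p 0.0539 to 0.0855), SLC17A5 without control replicate 2 or combined replicate 1 or 2 (limma adjusted p 0.0537 to 0.0607), ASAH1 without control replicate 2 or combined replicate 2 (limma adjusted p 0.0512 to 0.0595), CD63 without control replicate 2 or combined replicate 1 (limma adjusted p 0.05 to 0.0645) and NPC1 without control replicate 2 (limma adjusted p = 0.0536). LGMN and PSAP were lost with a model of the compared groups alone as well (limma adjusted p = 0.0692 and 0.0795).

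Some members passed in this comparison only under other settings. FUCA1, at -0.17, was gained without TGF-β replicate 1 or 3 or NH4Cl replicate 1 or 3 (limma adjusted p 0.0309 to 0.0457) and with a filter at a mean of 5 FPKM or median centring (limma adjusted p 0.0363 to 0.0381), and MCOLN1, at -0.17, without control replicate 3 or combined replicate 3 (limma adjusted p 0.0318 to 0.0459). LIPA, at 0.17, was gained without combined replicate 2 (limma adjusted p = 0.0449) and with a filter at a mean of 5 FPKM or TPM in place of FPKM (limma adjusted p 0.0441 to 0.0495), PPT1, at 0.12, without combined replicate 3 (limma adjusted p = 0.0188) and CTSS, at -0.17, with median centring or no intensity trend (limma adjusted p 0.0222 to 0.0407). The number of members lower, 1 with all libraries, was 2 under some other settings, 3 with median centring, 0 without the block and 3 with replicate 3 left out of every group, where FUCA1 and MCOLN1 passed beside ACP2. Of all 12341 genes, 959 were lower with all libraries and 1139 with median centring. Without the block 30 were lower, and 665 with replicate 3 left out of every group. Without control replicate 2 the number of members passing in either direction was 6 (9.47% of all genes), without combined replicate 1 it was 9 (11.9%) and without combined replicate 2 it was 9 (11.8%). With replicate 1, 2 or 3 left out of every group it was 6, 5 and 17, beside 5.08%, 5.06% and 13% of all genes.

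TGF-β alone moved no member past the threshold. Against Control, 0 of 43 passed in limma, beside 0.0081% of all genes, 1 gene in number. An unadjusted p under 0.05 was reached by 422 of the 12341 genes (103 without the block) and by 1 member (0 without the block). That member was LGMN, at 0.14 (95% interval 0.023 to 0.25). The log2 fold changes ran from -0.10 to 0.14, and no interval reached below -0.30 or above 0.35. With TGF-β added to NH4Cl, 0 of 43 passed in limma, again beside 0.0081% of all genes. An unadjusted p under 0.05 was reached by 879 of the 12341 genes (165 without the block) and by 1 member (0 without the block). This member was IDS, whose exons overlap another gene as given above, at -0.21 (-0.39 to -0.029). The test of whether NH4Cl acted differently with TGF-β passed for 0 of 43 members and 0% of all genes in limma. Here 537 of the 12341 genes (115 without the block) and 2 members (0 without the block) had an unadjusted p under 0.05. These members were FUCA1 (0.19, 95% interval 0.025 to 0.36) and LGMN (-0.16, -0.32 to -0.0049). LGMN and FUCA1 passed with NH4Cl alone, but no difference between the 2 settings passed the test.

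Differences between replicate 3 and the other replicates were as large as those with NH4Cl for many members. The median size of the log2 difference between replicate 3 and the mean of replicates 1 and 2 was 0.17 over the 43 members and 0.16 over all genes, while that of the change with NH4Cl was 0.16 over the members and 0.088 over all genes. NPC1 (0.67), NEU1 (0.40) and CTSB (0.34) were higher in replicate 3, and CTSL (-0.52), CTSH (-0.47), PPT1 (-0.45), LIPA (-0.40) and LAMP1 (-0.38) were lower. With replicate 3 left out of every group, NH4Cl against Control gave GAA 0.84 (limma adjusted p = 0.000707), NPC2 0.65 (limma adjusted p = 0.00367), TPP1 0.39 (limma adjusted p = 0.00814), NEU1 0.41 (limma adjusted p = 0.00832) and ACP2 -0.39 (limma adjusted p = 0.041). Of the 17 calls 6 were lost, those of ASAH1 0.26 (limma adjusted p = 0.0659), CD63 0.14 (limma adjusted p = 0.0899), GALNS 0.21 (limma adjusted p = 0.173), LAMP2 0.15 (limma adjusted p = 0.0738), LIPA 0.24 (limma adjusted p = 0.1) and MAN2B1 -0.13 (limma adjusted p = 0.0895). With replicate 1 or replicate 2 left out in its place, fewer members passed, as given above.

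Other genes of the lysosome were listed by function, also with earlier results of these data known. Their counts with NH4Cl against Control stand beside 7.42% of all genes upward and 6.14% downward. Of 17 other hydrolases and luminal proteins tested, 4 rose and 1 fell, with a median log2 fold change of -0.018. HYAL1, a hyaluronidase, rose by 0.40 (limma adjusted p = 0.00404), from a mean of 6.08 FPKM in Control to 8.25 with NH4Cl. GGH, which trims folate polyglutamates, rose by 0.33 (limma adjusted p = 0.00132), from 48.2 to 60.7 FPKM. Of 24 other lysosome membrane proteins, 3 rose and 1 fell (median 0.022): TPCN2, a cation channel, fell by 0.38 (limma adjusted p = 0.00366), CLCN7, the chloride-proton exchanger, rose by 0.21 (limma adjusted p = 0.0375) and SLC15A4, a histidine and peptide transporter, by 0.19 (limma adjusted p = 0.0322). Of 15 genes that sort lysosomal enzymes, 0 rose and 1 fell, CLN6, at -0.28 (limma adjusted p = 0.00545), with a median of -0.063. Each of these named genes moved the same way in 3 of 3 pairs, and of them GGH and TPCN2 passed without the block. In the combined group against TGF-β, where 10.3% of all genes rose and 8.48% fell, the other hydrolases had 4 up and 5 down of 17, the other membrane proteins 3 up and 2 down of 24 and the sorting genes 3 up and 1 down of 15. Against Control, where 10.7% of all genes rose and 7.77% fell, the combined group had 4 up and 3 down, 2 up and 1 down, and 2 up and 1 down in the same order. No test compared these lists with the members.

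Of the TFEB family, 2 of 4 genes were tested. TFEB averaged 3.46 FPKM in Control, 4.19 after TGF-β, 3.47 after NH4Cl and 3.97 in the combined group, and TFE3 20.1, 21.7, 19.1 and 19.1 in the same order. With NH4Cl against Control their log2 fold changes were -0.00075 and -0.075, and neither passed (limma adjusted p = 0.995 and 0.249). These are RNA levels, which do not show the activity of the proteins, and that activity was not tested. TFE3 fell in the combined group against TGF-β, by 0.18 (limma adjusted p = 0.0138; without the block 0.427). MITF was below the filter, and TFEC was not analysed here.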

How the data were processed

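Bulk RNA was sequenced from HCT116 cells in 4 groups of 3 libraries. The FPKM values were made by the authors and used as deposited. The submitters' notes name Trimmomatic 0.36, STAR 2.5.2b, featureCounts of Subread 1.5.2 and DESeq2 on GRCh38, while the study's methods name HTSeq for counting, so the counting tool is uncertain. The recovered reads on genes (14808913 to 18193486 per library, whole within 0.02) served for depth only.

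Genes averaging 1 FPKM or more across the 12 libraries were tested on log2(FPKM + 1) with limma 3.58.1 in R 4.3.3, two-sided, with an intensity trend, 4 group means and the replicate number as a block, and Benjamini-Hochberg adjustment over 12341 genes at 0.05. What the replicate numbers mean is not given in the labels. The blocked model was chosen as the main one with earlier results known, when few calls were seen without it, and the study's own comparison names no block. Members and lists were also chosen with earlier results of these data known. Alternatives were no block, a pseudocount of 0.1, no filter or a mean of 5, TPM, median centring, no trend, compared groups alone, a log2 fold change of at least 0.2, each library left out, and each replicate number left out. Exon positions are from GENCODE release 29 and promoters from RefSeq. Python 3.11.15, numpy 2.4.6, pandas 2.3.3, scipy 1.17.1 and matplotlib 3.10.9 were used.

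In each class, values in every library are given for the most abundant member and for the 2 largest rises and 2 largest falls with NH4Cl past the threshold. Of each other list, at most 3 genes past the threshold with the largest changes are named, and all of the TFEB family; 1 gene that this rule names is not reported here.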

Additional observations from a re-analysis of the deposited data

How the results depend on the processing

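Without the replicate block, 2 members passed with NH4Cl against Control, 2 in the combined group against Control and 2 in the combined group against TGF-β, where 17, 15 and 13 passed with it; the cause was not tested. With no filter on FPKM, 11 passed with NH4Cl against Control, with more genes tested, beside 4.36% of all genes. With only the compared groups in the model, 8 passed in the combined group against TGF-β, with fewer samples, beside 9.12% of all genes.

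Replicate number 1 left out of every group gave 3, 6 and 2 in the same order, beside 2.21%, 5.08% and 4.42% of all genes. Replicate number 2 left out gave 2, 5 and 3, beside 1.77%, 5.06% and 4.7%. Replicate number 3 left out gave 12, 17 and 14, beside 9.29%, 13% and 13.4%. These settings had equally few samples, and the cause of their difference was not tested. Leaving out 1 library gave 8 to 18 with NH4Cl against Control, 6 to 16 in the combined group against Control and 7 to 14 in the combined group against TGF-β. The shares of all genes ran from 5.71% to 14.5%, from 9.47% to 19% and from 10.1% to 19.2% in that order. The counts of 0 with TGF-β, with TGF-β added to NH4Cl and for the interaction were 0 under every alternative run.

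For the members given in every library, 1020 values kept their direction and side of the threshold under an alternative, 187 no longer passed, 21 newly passed and 5 changed sign. Those 5 were all ARSA, which did not pass in these comparisons. In the combined group against Control its log2 fold change was -0.0084 without control replicate 2, -0.0202 without control replicate 3 and -0.0213 without combined replicate 1 (range -0.0213 to 0.0919 with 1 library out). Against TGF-β it was 0.0786 without TGF-β replicate 3 (range -0.2396 to 0.0786) and 0.0696 with replicate number 3 left out; the cause was not tested. With 3 libraries a group, 95% intervals reached a median of 0.13 to either side of the estimate for TGF-β and 0.18 for the interaction, which limits what could be seen.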
